A study of Mus musculus with 12 samples.

Results

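ST2-positive regulatory T cells (ST2+ Treg) of MC38 tumours are described here. ST2, encoded by Il1rl1, is the receptor for the alarmin IL-33. Cells were selected on raw UMI counts (counts of distinct RNA molecules): Foxp3, Cd4 and Il1rl1 above 0 and Cd8a at 0, among cells in which 500 or more genes were detected and no more than 10% of UMIs were mitochondrial. This gate held 151 of 2740 kept cells. The same gate without Il1rl1 held 517 Treg cells, of which 366 had no Il1rl1 UMI and are called ST2- Treg below. Because Foxp3, Cd4, Cd8a and Il1rl1 chose the cells, their values are given as a description and were left out of every count of called genes.

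MC38, a mouse colorectal carcinoma line, was grown in mice of the genotype Kaedehet, heterozygous for Kaede, a fluorescent protein that is green until violet light converts it to red. On day 14 light of 405 nm was shone on the lymph node that drains the tumour, and tumour lymphocytes enriched for CD4 and CD8 were later sorted as CD90.2+ cells by colour, red for converted and green for unconverted Kaede. All groups carried the same genotype, tumour and photoconversion. The groups were 12 Gy of tumour radiation (RT) and no radiation (NT) at 24 h (day 1), the same at 72 h (day 3), and RT with FTY720 and FTY720 alone at 72 h, where FTY720, a drug that acts on S1P receptors and keeps lymphocytes from leaving lymphoid organs, was given at 10 µg on day 15. Each of the 6 conditions had 2 replicates of 4 tumours pooled from 4 mice, which gave 12 tumour pools, and 24 hashed samples after the colour sort. Per replicate, 1 droplet well (10x Genomics) held RT and NT of day 1 together with NT of day 3, and a second well held RT of day 3 and both FTY720 conditions. RT and NT of day 3 were therefore in different wells. The promoter of Kaede and the age of the mice were not given in the sources used here.

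Treg cells restrain other T cells through Foxp3-dependent programmes. In barrier tissues, fat and tumours, a share of them carries ST2 and responds to IL-33 released by damaged cells, and these cells are known for the epithelial growth factor amphiregulin (Areg), for the transcription factor GATA3 and for the receptor KLRG1. Migration of T cells between blood, lymph node and tissue is controlled by the transcription factor KLF2, which drives the egress receptor S1PR1, and by chemokine receptors and integrins.

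Of 2816 deposited barcodes 76 were left out by the filters, all kept cells had a hashtag call, and 0 barcode sequences were found in more than 1 well over 6 pairs of wells. A pool held 39 to 587 kept cells and 2 to 33 ST2+ Treg. ST2+ Treg had a median of 20856 UMIs, against 19800 UMIs in ST2- Treg, 15032.5 in conventional CD4 cells (Cd4 above 0, Cd8a and Foxp3 at 0, 494 cells) and 22558 in CD8 cells (1542 cells). No doublet caller was run. At least 2 productive TCR beta chains were found in 7 ST2+ cells (4.64%) and 7 ST2- cells (1.91%), and a UMI of Cd8b1, a CD8 gene outside the gate, was found in 31 ST2+ cells (20.5%), 50 ST2- cells (13.7%) and 40 conventional CD4 cells (8.10%). These cells are called multiplet candidates below, and calls lost without them are named with each gene group. Over 9 pools the summed level of 4 tumour markers was 4.87, 16.3 and 71.8 CPM (lowest, median and highest pool, in counts per 1000000 UMIs) in ST2+ Treg, against 0, 15.9 and 48.9 CPM in ST2- Treg, with Krt8 and Krt19 at 0 in both. Of 6 markers of innate type 2 lymphocytes or mast cells 3 had a UMI in ST2+ Treg, with 3 UMIs in all, against 4 markers with 25 UMIs in ST2- Treg, and Cpa3 and Mcpt4 were at 0 in both. Stromal markers ran over 51.3, 103 and 218 CPM in ST2+ Treg, against 26.9, 91.8 and 178 CPM in ST2- Treg. Myeloid markers are given beside Itgam below, and the part of other cell types in the results was not tested otherwise.

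The labels went against the files, or against independence of the pools, in 2 places. In the replicate 2 wells the hashtag names of the matrices exchange red and green relative to the tag numbers of the labels, in 12 of 12 hashed samples, against 0 of 12 in replicate 1. Colours below follow the matrices, and the comparisons of red with green are also given with the label colours. Values in red or in green cells alone are under the matrix names only. Replicate pools of 1 condition also shared T cell receptors. Of 1905 TCR alpha and beta sequence pairs over all kept T cells, 69 were found in more than 1 pool. Of these, 66 were in both replicates of 1 condition, 3 were in 2 conditions, and 0 were in more than 1 pool of a single well. Of the 66, 63 carried the same hashtag number in both replicates and 64 another colour name in replicate 2. A hashtag number has the same label colour in both replicates, so most of these pairs kept their label colour and changed their matrix colour. Of the 69, 8 held a gated Treg cell and 1 an ST2+ cell. Within a pool, pairs of Treg cells with the same sequences had the same colour in 42 cases and another colour in 1. For pairs of CD8 cells these numbers were 873 and 8. Cells of a clone thus mostly had the same colour within a pool, and between replicates mostly under the label colours only. This pattern lies with the label colours rather than with the matrix colours used below. The replicates are not shown to be separate animals, so p-values below measure the spread between these pools and may be too small. After these values were seen, results were also computed with pools regrouped by hashtag number and with both replicates of a condition summed.

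Clonal relations of ST2+ Treg were read from the TCR beta chain, whose locus is on mouse chromosome 6. The CDR3, the part of the chain that contacts antigen, is given below as the deposited TCR tables hold it, 5′ to 3′, for the clone found in 2 ST2+ cells and for 4 of the 11 clones shared with ST2- cells, those with 3 cells and the clone found in both replicates. Capitals mark the bases outside the start and the end that at least 20% of the distinct sequences with the same V or J gene had in common.
TRBV5 and TRBJ1-1, NT day 1: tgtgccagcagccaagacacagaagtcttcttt
TRBV19 and TRBJ1-4, NT day 1: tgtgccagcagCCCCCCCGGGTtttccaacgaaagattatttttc
TRBV13-3 and TRBJ2-7, RT day 1: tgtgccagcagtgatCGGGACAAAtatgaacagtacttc
TRBV1 and TRBJ2-7, RT day 1: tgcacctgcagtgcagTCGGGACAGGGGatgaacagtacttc
TRBV19 and TRBJ2-5, NT day 1: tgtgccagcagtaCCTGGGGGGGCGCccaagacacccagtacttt

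ST2+ Treg cells were clonally diverse. A beta chain was read in 142 ST2+ cells, which held 141 clones, counting a clone once per condition, and 1 clone held 2 ST2+ cells (1.41% of the cells). Among ST2- Treg, 333 cells held 302 clones, and 24 clones of 2 or more held 55 cells (16.5%). To set numbers of unequal size side by side, the share of cell pairs of a pool with the same beta chain was taken. It was 0.0269% of ST2+ pairs and 0.338% of ST2- pairs on average over 8 pools (SD 0.0760 for ST2+ and 0.556 for ST2-). In 1 of 8 pools the ST2+ share was above 0, against 5 of 8 for ST2-. The difference of −0.311 percentage points did not pass (exact permutation test flipping signs over pools, two-sided, p = 0.0625, and p = 0.125 adjusted over 2 TCR tests). It was −0.117 without NT day 3 replicate 1, whose ST2- pairs had the highest share (exact permutation p = 0.125), −0.145 with both replicates of a condition summed (5 conditions, exact permutation p = 0.25), and −0.255 with pools regrouped by hashtag number (exact permutation p = 0.0312).

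The clone found in 2 ST2+ cells was the TRBV5 sequence above, which holds 0 capital bases. It was also found in other conditions, in 4 cells in all, of which 3 were ST2+ and 1 ST2-, from 3 pools, with 2 different alpha sequences. Descent of these cells from 1 cell was not shown by the beta chain. TRBV5 was carried by 23 of 142 ST2+ cells (16.2%) and by 25 of 333 ST2- cells (7.51%), the widest gap of the V genes. Other V genes lay the other way, such as TRBV1 (6.34% of ST2+ and 10.8% of ST2- cells). These shares were summed over all pools and not tested.

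Sharing outside the ST2+ cells was found with ST2- Treg. The 11 shared clones held 11 ST2+ and 13 ST2- cells, and 0 ST2+ clones were shared with conventional CD4 or CD8 cells of the same condition. Over 8 pools, 0.115% ± 0.20 (SD) of pairs of an ST2+ and an ST2- Treg cell had the same beta chain, against 0% of pairs of an ST2+ and a conventional CD4 cell (difference 0.115, higher in 3 of 8 pools and lower in 0, exact sign-flip permutation p = 0.25, adjusted p = 0.25). Each shared clone held 1 ST2+ cell. The ST2+ cell of the TRBV13-3 clone had 14 Il1rl1 UMIs and that of the TRBV19 and TRBJ1-4 clone 8. How often Il1rl1 was missed in the ST2- cells of these clones was not tested. The TRBV19 and TRBJ2-5 clone had its ST2+ cell in red and its ST2- cell in green, in the other replicate, and with the label colours both cells have the same colour.

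The label was checked on its markers. Il1rl1 stood at 278 CPM (counts per 1000000 UMIs of the summed cells) in ST2+ Treg, 22.7 CPM in conventional CD4 cells and 11.6 CPM in CD8 cells. An Il1rl1 UMI was found in 53 conventional CD4 cells (10.7%) and in 163 CD8 cells (10.6%), with 178 UMIs in the CD4 and 445 in the CD8 cells. These shares stand beside the 151 of 517 gated Treg, and the part of free RNA in them was not tested. ST2+ Treg held 57.5% of all Il1rl1 UMIs. Per ST2+ cell the median was 4 Il1rl1 UMIs and the highest 33, and 29 cells had a single UMI. Foxp3 had a median of 16 UMIs per ST2+ cell, against 13 per ST2- cell. Il2ra, the high-affinity IL-2 receptor chain, was found in 99.3% and Ikzf2, a Treg transcription factor, in 100% of ST2+ cells, against 97.0% and 98.1% of ST2- cells.

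Areg, the remaining marker of the label, did not separate the cells. An Areg UMI was found in 61 of 151 ST2+ cells (40.4%, exact 95% interval 32.5 to 48.7) and in 127 of 366 ST2- cells (34.7%, 29.8 to 39.8), against 4.45% of conventional CD4 and 1.75% of CD8 cells. After thinning each cell to 8000 UMIs, which left out 3 ST2+ and 18 ST2- cells, the shares were 31.1% in ST2+ and 30.7% in ST2- cells. Over 9 pools Areg ranged over 106, 236 and 615 CPM in ST2+ Treg (lowest, median and highest pool), against 85.1, 359 and 689 CPM in ST2- Treg. The groups overlapped over nearly their whole range, and the log2 fold change was −0.33 ± 0.26 (SE, adjusted p = 0.697). Il1rl1 and Foxp3 chose the cells and so check nothing, and Areg, which did not choose them, stood on both sides of the gate.

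Within the gated Treg, levels were set out by the Il1rl1 UMIs of the cell, without a test, since Il1rl1 chose the cells (366 cells with 0 UMIs, 29 with 1, 60 with 2 to 4 and 62 with 5 or more). Il10, an immunosuppressive cytokine, stood at 232, 303, 102 and 22.2 CPM in these classes. Lag3, an inhibitory receptor for MHC class II, stood at 144, 94.4, 37.1 and 15.3 CPM. Both were lowest in the cells with most Il1rl1, and for Il10 the cells with 1 UMI, just inside the threshold, lay with those just outside it. Nrp1, the semaphorin receptor neuropilin-1, stood at 86.4, 187, 167 and 225 CPM, and Klrg1 at 277, 224, 286 and 455 CPM. Klrg1 was highest in the class with 5 or more UMIs, whereas Nrp1 stood higher from the first Il1rl1 UMI on. Areg went with neither pattern, at 341, 74.0, 227 and 301 CPM. Median depth of the classes was 19800, 20125, 19627 and 21942.5 UMIs per cell.

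**Figure D1:**
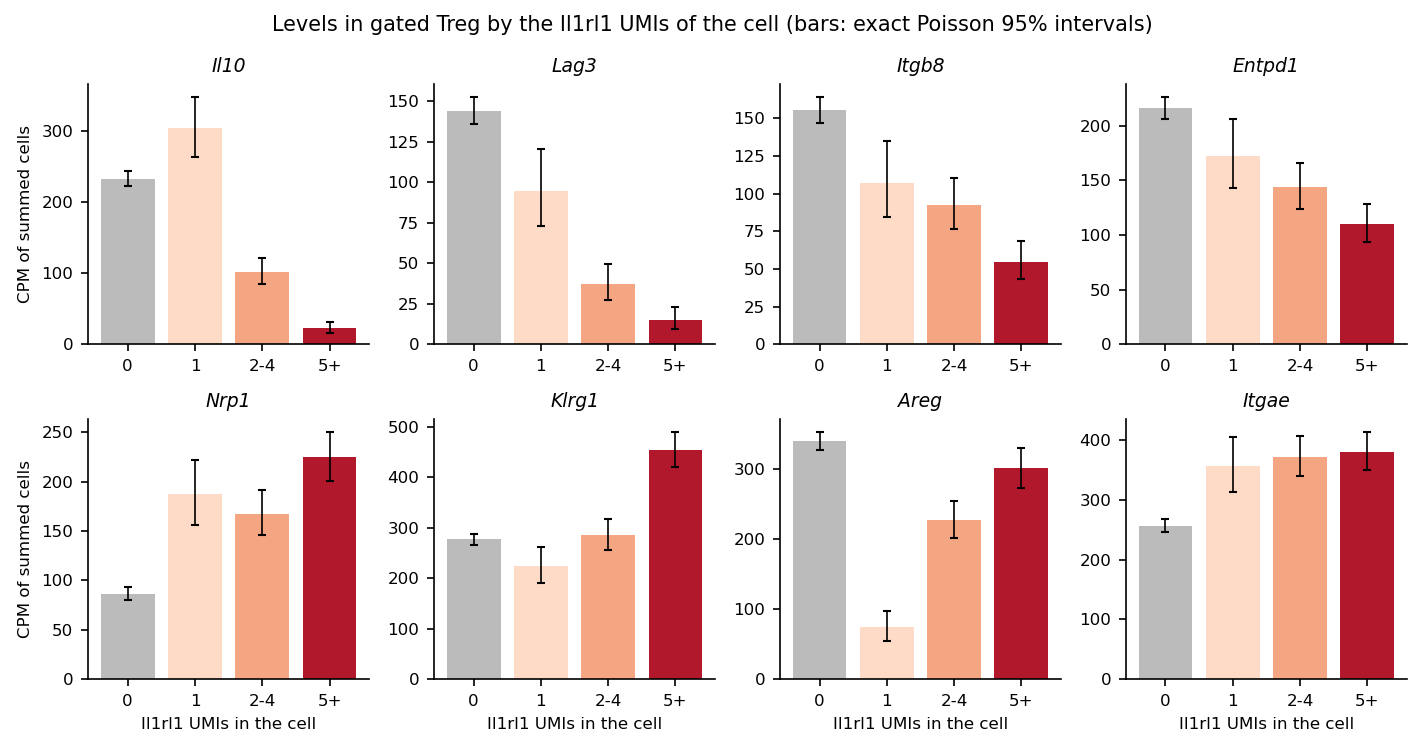
Levels of 8 genes (CPM of summed cells, vertical axis from 0) in gated Treg with 0, 1, 2 to 4 and 5 or more Il1rl1 UMIs (horizontal axis), with bars for exact Poisson 95% intervals that cover counting error only. Il10 runs over 232, 303, 102 and 22.2 CPM and Nrp1 over 86.4, 187, 167 and 225 CPM.

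ST2+ and ST2- Treg of the same tumours differed in genes of cell traffic, integrins, immediate early genes, checkpoint receptors and the cell cycle. Raw counts were summed per pool over at least 5 cells on each side, which 9 pools had, and compared within pools by edgeR's quasi-likelihood test with Benjamini-Hochberg adjustment. Of 8131 genes tested 172 passed an adjusted p of 0.05 (2.12%), of which 77 were higher (0.947%) and 95 lower (1.17%) in ST2+ Treg. The median log2 fold change of all genes tested was −0.02. CPM of this comparison are scaled by TMM, and 3 values in a row are the lowest, the median and the highest of the 9 pools. Foxp3, which the gate required above 0 in both classes alike, ran over 715, 869 and 1271 CPM in ST2+ Treg, against 580, 690 and 831 CPM in ST2- Treg. This difference is given as a description and was not tested.

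Of 14 genes of egress and lymph node homing 5 were higher and 0 lower in ST2+ Treg, with a list median of 0.53, and 3 of the 14 lay below 0. Without multiplet candidates 2 passed, Klf2 and S1pr1. Klf2, the transcription factor of T cell egress (ENSMUSG00000055148), ran over 157, 428 and 1141 CPM in ST2+ Treg, against 82.8, 165 and 281 CPM in ST2- Treg. It was higher in all 9 pools, although the ranges overlapped (log2 fold change 1.27 ± 0.20 SE, adjusted p = 0.00203). S1pr1, the sphingosine-1-phosphate receptor that FTY720 acts on (ENSMUSG00000045092), ran over 83.9, 103 and 246 CPM in ST2+ Treg, against 8.46, 46.6 and 116 CPM in ST2- Treg, and was higher in 9 of 9 pools (1.26 ± 0.18, adjusted p = 0.000959). Klf3, a related factor, was higher in 9 of 9 pools, at 77.2, 113 and 220 CPM in ST2+ Treg, against 0, 45.1 and 72.3 CPM in ST2- Treg (1.32 ± 0.28, adjusted p = 0.0160). Ly6c1, a surface antigen of memory T cells whose reads may be shared with the near-identical Ly6c2 (2.00 ± 0.51, adjusted p = 0.0437), and Il7r, the IL-7 receptor (0.63 ± 0.16, adjusted p = 0.0473), passed closely, and each was lost when some single pools were left out (kept in 3 of 9 omissions for Ly6c1 and 2 of 9 for Il7r). Ccr7, the lymph node homing receptor itself, did not pass, at 0, 16.2 and 60.1 CPM in ST2+ Treg and 0, 32.0 and 153 CPM in ST2- Treg (−0.38 ± 0.39, adjusted p = 0.803). In green cells alone Il7r had a log2 fold change of −0.65 (adjusted p = 0.188).

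Receptors that place T cells in tissue also differed. Of 17 chemokine receptors and integrins of this list, 4 were higher and 0 lower, with a list median of 0.61. Cxcr6, Itgb8 and Itgae stood in other lists, and the first 2 of them were lower. Ccr4, a receptor for CCL17 and CCL22 (ENSMUSG00000047898), ran over 40.0, 157 and 266 CPM in ST2+ Treg, against 0, 72.3 and 130 CPM in ST2- Treg, higher in 9 of 9 pools (0.99 ± 0.15, adjusted p = 0.00163). Ccr3, the eotaxin receptor, was higher in 6 of 9 pools (1.80 ± 0.35, adjusted p = 0.00852). The integrin chains Itga2 (1.29 ± 0.31, adjusted p = 0.0312) and Itgb1 (0.84 ± 0.14, adjusted p = 0.00272), which pair as a collagen receptor, were both higher. Itgae, the CD103 chain that binds epithelial E-cadherin, ran over 264, 366 and 863 CPM in ST2+ Treg, against 67.7, 261 and 366 CPM in ST2- Treg (0.89 ± 0.19, adjusted p = 0.0148). In green cells alone its value was −0.10 (adjusted p = 0.938). Itgam, the CD11b chain, was higher in 8 of 9 pools (2.12 ± 0.44, adjusted p = 0.0137), while the summed level of 7 myeloid markers was 0, 5.25 and 18.7 CPM in ST2+ Treg against 2.03, 20.2 and 181 CPM in ST2- Treg, and the part of such cells in the result was not tested. Without multiplet candidates Itga2, Itgae and Itgam did not pass. Emb, the cell adhesion glycoprotein embigin, was higher in 9 of 9 pools (1.35 ± 0.22, adjusted p = 0.00235).

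Cxcr6 and Itgb8 were lower in ST2+ Treg. Cxcr6, the CXCL16 receptor of tissue-resident and effector T cells (ENSMUSG00000048521), ran over 0, 17.5 and 121 CPM in ST2+ Treg, against 48.1, 149 and 326 CPM in ST2- Treg, lower in 9 of 9 pools (−1.95 ± 0.35, adjusted p = 0.00501). In red cells alone its log2 fold change was −0.94 (adjusted p = 0.384). Itgb8, whose integrin activates latent TGF-β, ran over 0, 74.5 and 108 CPM in ST2+ Treg, against 60.3, 186 and 278 CPM in ST2- Treg, lower in 9 of 9 pools (−0.97 ± 0.22, adjusted p = 0.0260), a call kept in 4 of 9 omissions of a pool and lost without multiplet candidates. Ccr8, a chemokine receptor of tumour Treg, did not pass, at 0, 187 and 480 CPM in ST2+ Treg and 226, 366 and 538 CPM in ST2- Treg (−0.81 ± 0.32, adjusted p = 0.269).

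**Figure D2:**
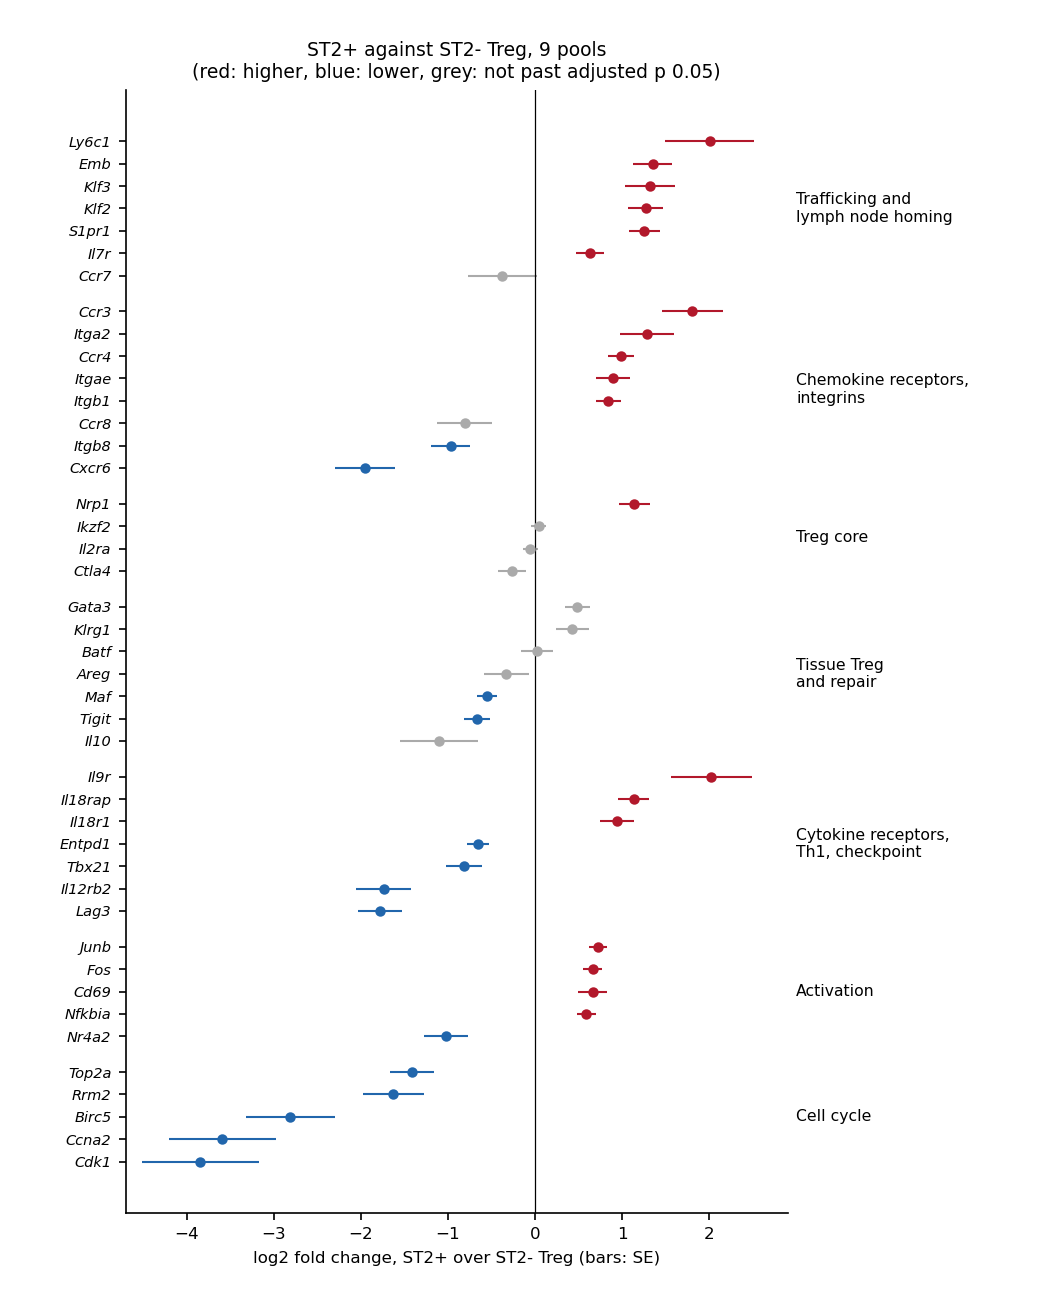
Log2 fold changes of ST2+ over ST2- Treg over 9 pools (horizontal axis, bars are SE) of named genes grouped by role, in red where higher and blue where lower past an adjusted p of 0.05, and in grey where not past it. Klf2 stands at 1.27, Nrp1 at 1.14, Cxcr6 at −1.95 and Cdk1 at −3.85, and Areg is grey at −0.33.

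Among genes of Treg identity, Nrp1 alone of 13 measured was higher and Itgb8 alone lower. Nrp1 (ENSMUSG00000025810) ran over 121, 180 and 328 CPM in ST2+ Treg, against 33.8, 77.9 and 132 CPM in ST2- Treg, higher in 8 of 9 pools (1.14 ± 0.18, adjusted p = 0.00195). It passed in all 25 alternative settings in which it was tested. Ikzf2 (0.04 ± 0.09, adjusted p = 0.927), Il2ra (−0.05 ± 0.09, adjusted p = 0.897) and Ctla4, which removes B7 ligands from antigen-presenting cells (−0.26 ± 0.16, adjusted p = 0.560), did not pass.

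Of 21 genes of tissue Treg and repair, 1 was higher (Itgae) and 2 were lower, Maf and Tigit, with a list median of −0.15. Maf, a transcription factor of IL-10 producing T cells, ran over 412, 612 and 800 CPM in ST2+ Treg, against 544, 825 and 1346 CPM in ST2- Treg (−0.55 ± 0.11, adjusted p = 0.0138). Tigit, an inhibitory receptor, was lower in 8 of 9 pools (−0.67 ± 0.15, adjusted p = 0.0205). Gata3, the type 2 transcription factor, ran over 100.1, 173 and 238 CPM in ST2+ Treg, against 91.6, 124 and 172 CPM in ST2- Treg, and did not pass (0.49 ± 0.14, adjusted p = 0.0930). It passed in 4 of 25 alternative settings, among them without multiplet candidates (0.64, adjusted p = 0.0349) and with at least 2 Il1rl1 UMIs per ST2+ cell (0.58, adjusted p = 0.0274). Klrg1 (0.43 ± 0.19, adjusted p = 0.361) and Batf (0.02 ± 0.18, adjusted p = 0.996), a transcription factor of tissue Treg, did not pass. Il10 ran over 0, 112 and 223 CPM in ST2+ Treg, against 64.4, 215 and 459 CPM in ST2- Treg, and did not pass in the pool sums (−1.10 ± 0.45, adjusted p = 0.291), while a UMI of it was found in 15.2% of ST2+ cells (exact 95% interval 9.91 to 22.0) and 39.3% of ST2- cells (34.3 to 44.6), and in 4.86% of conventional CD4 cells. Thinned to 8000 UMIs these shares were 12.2% in ST2+ and 32.5% in ST2- cells. Fractions of cells cover counting error only and are not a test over pools.

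**Figure D3:**
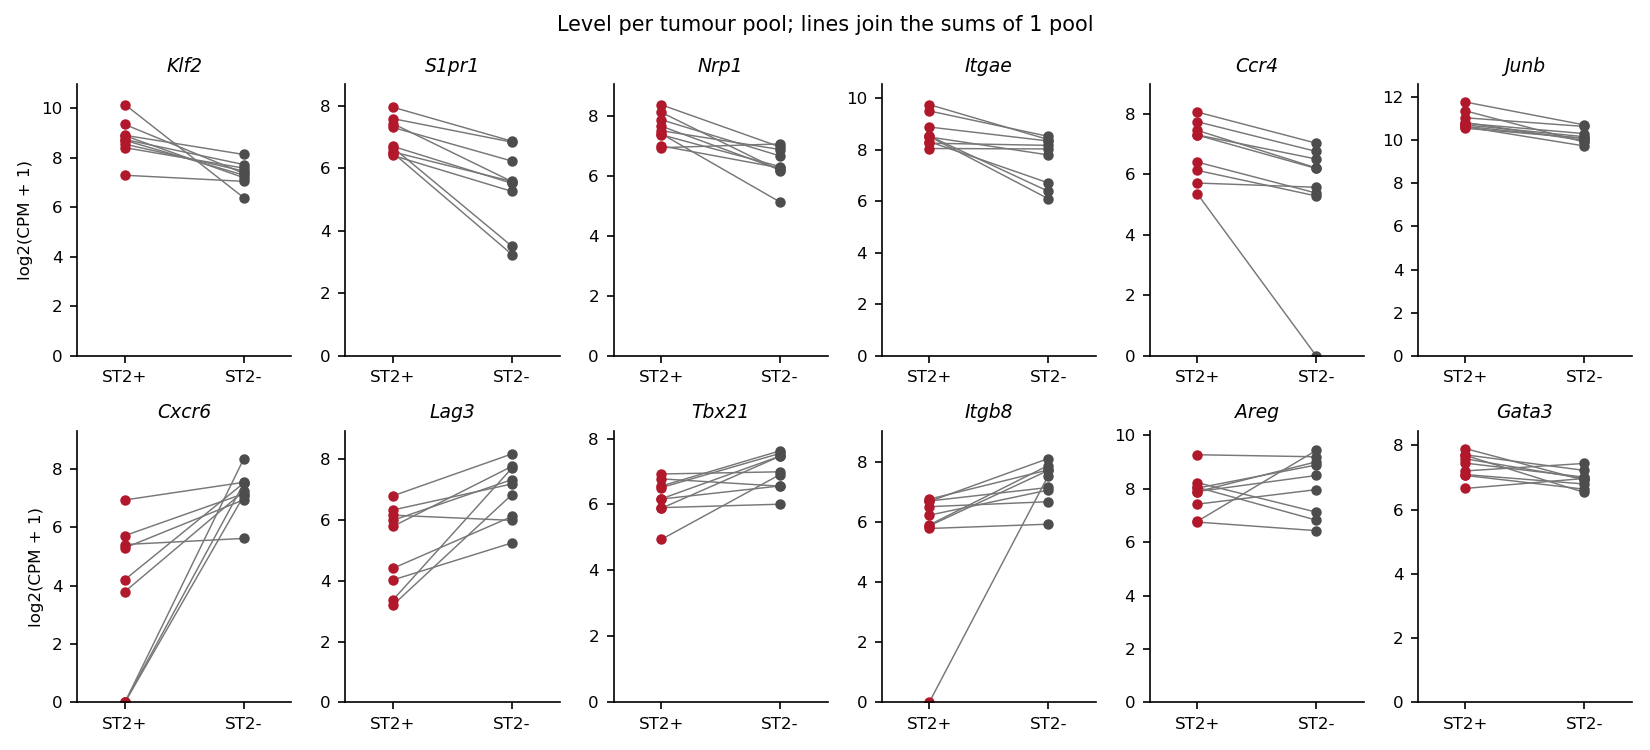
Level of 12 genes, as log2(CPM + 1) from 0 (vertical axis), in the ST2+ and the ST2- Treg sum of each of 9 pools, with a line joining the sums of a pool. Klf2 and S1pr1 are higher in ST2+ Treg in 9 of 9 pools and Cxcr6 is lower in 9 of 9, whereas the lines of Areg run both ways.

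Both chains of the IL-18 receptor and Il9r were higher, while Tbx21 and Il12rb2 were lower. Il18r1 (0.94 ± 0.20, adjusted p = 0.0147) and Il18rap (1.13 ± 0.17, adjusted p = 0.00163) were each higher in 9 of 9 pools. Il18rap ran over 49.4, 93.4 and 122 CPM in ST2+ Treg, against 12.7, 43.2 and 59.5 CPM in ST2- Treg, and the ranges overlapped only at their ends. Il9r, the IL-9 receptor, was higher in 7 of 9 pools and lower in 0 (2.03 ± 0.46, adjusted p = 0.0274), 1 of 4 type 2 genes measured. Tbx21, the type 1 master factor T-bet, ran over 29.7, 71.0 and 120 CPM in ST2+ Treg, against 63.4, 126 and 197 CPM in ST2- Treg (−0.82 ± 0.21, adjusted p = 0.0417). The Tbx21 call was kept in 4 of 9 omissions of a pool. Il12rb2, the IL-12 receptor chain, was lower in 9 of 9 pools (−1.74 ± 0.32, adjusted p = 0.00589). Of 11 type 1 genes measured, 2 were thus higher and 2 lower, with a list median of −0.46. Without multiplet candidates 0 of 11 type 1 and 0 of 4 type 2 genes passed, with a type 1 median of −0.54.

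Of 19 genes of effector function and costimulation 0 were higher and 3 lower: Cxcr6, Lag3 and Entpd1. Lag3 (ENSMUSG00000030124) ran over 8.19, 54.1 and 109 CPM in ST2+ Treg, against 36.8, 144 and 286 CPM in ST2- Treg, lower in 8 of 9 pools (−1.78 ± 0.26, adjusted p = 0.000990). Entpd1, the CD39 enzyme that breaks down extracellular ATP, ran over 85.1, 162 and 306 CPM in ST2+ Treg, against 141, 259 and 398 CPM in ST2- Treg, lower in 9 of 9 pools (−0.66 ± 0.13, adjusted p = 0.00798). Ccl3, a chemokine of activated T cells, was lower in 8 of 9 pools (−2.53 ± 0.59, adjusted p = 0.0270), with a median of 0 CPM in ST2+ Treg against 195 CPM in ST2- Treg. The Ccl3 call was kept in 3 of 9 omissions of a pool. Plek, the cytoskeletal regulator pleckstrin, was lower in 9 of 9 pools, at 0, 17.5 and 37.3 CPM in ST2+ Treg, against 39.9, 72.8 and 104 CPM in ST2- Treg (−2.24 ± 0.30, adjusted p = 0.000741).

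Of 7 AP-1 genes measured 2 were higher and 2 lay below 0. The higher genes were Junb, at 1487, 1742 and 3450 CPM in ST2+ Treg against 842, 1079 and 1656 CPM in ST2- Treg (0.73 ± 0.10, adjusted p = 0.000990), and Fos (0.66 ± 0.11, adjusted p = 0.00235), each in 9 of 9 pools. Of 19 genes of IL-33 receptor signalling only Nfkbia, the inhibitor and target of NF-κB, was higher (0.59 ± 0.11, adjusted p = 0.00641), and 0 were lower. Of 13 genes of the TCR response Cd69, an early activation antigen that holds S1PR1 off the cell surface, was higher (0.66 ± 0.16, adjusted p = 0.0399), and Nr4a2, an orphan nuclear receptor induced by TCR signals, was lower (−1.03 ± 0.26, adjusted p = 0.0399). In 0 of 10 heat shock genes and 0 of 10 IL-2 and STAT5 genes was the threshold passed. Of 16 p53 targets Btg2 was higher (0.56 ± 0.14, adjusted p = 0.0373), of 12 genes of lipid metabolism Fabp5 was lower (−1.11 ± 0.28, adjusted p = 0.0428), and of 18 interferon-stimulated genes Oas1a was higher (0.77 ± 0.18, adjusted p = 0.0305) and Isg20 lower (−0.53 ± 0.13, adjusted p = 0.0312). Without multiplet candidates Junb and Fos still passed, and Nfkbia, Cd69, Nr4a2, Btg2, Fabp5, Oas1a and Isg20 did not. On leaving out single pools the call was kept in 1 of 9 omissions for Fabp5, 2 for Isg20, 2 for Cd69, 3 for Btg2, 3 for Nr4a2 and 5 for Oas1a.

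Cell cycle genes were lower in ST2+ Treg when both colours were summed. Of 17 measured 0 were higher and 6 lower, all 17 values lay below 0, and the list median was −0.90. Red cells alone gave 4 lower of 17, with a median of −1.04. In green cells alone 8 were tested, 0 passed and 5 lay above 0, with a median of 0.102. After thinning to 8000 UMIs per cell 7 were tested and 1 was lower, with a median of −0.452. Without multiplet candidates 4 passed, Birc5, Ccna2, Mki67 and Top2a, and Cdk1, Cenpf and Rrm2 did not. Cdk1, the mitotic kinase, ran over 0, 0 and 8.72 CPM in ST2+ Treg, against 0, 7.35 and 47.0 CPM in ST2- Treg (−3.85 ± 0.67, adjusted p = 0.00589). Top2a, the DNA topoisomerase of dividing cells, ran over 19.8, 50.1 and 106 CPM in ST2+ Treg, against 54.3, 97.0 and 388 CPM in ST2- Treg (−1.42 ± 0.25, adjusted p = 0.00513). Many such counts came from few cells. Cells with a UMI of at least 2 of 9 cycle genes numbered 8 of 151 in ST2+ Treg (5.30%, exact 95% interval 2.31 to 10.2) and 36 of 366 in ST2- Treg (9.84%, 6.98 to 13.4). The rule used Ccna2, Cdk1, Birc5, Cenpf, Kif11, Rrm2, Ccnb2, Pclaf and Ccnb1. These cells held 100% of the Ccna2 UMIs of ST2+ Treg and 98.8% of those of ST2- Treg, but Ccna2 is in the rule. Of the UMIs of Top2a, which is outside the rule, they held 32.6% in ST2+ Treg and 74.5% in ST2- Treg. With these cells left out, 0 of 10 cell cycle genes tested passed, with a median of 0.24. The rule holds each of the 6 called genes but Top2a, so the loss of those calls was set in advance and tests nothing. Over all genes 87 passed, of which 79 were among the 172. Klf2, S1pr1, Nrp1, Ccr4, Lag3 and Cxcr6 were among those that still passed, and Itgae, Ccr3, Itgam and Il7r were not. A UMI of Mki67, the proliferation antigen, was found in 51.0% of ST2+ and 42.9% of ST2- cells, and after thinning in 29.1% of ST2+ and 28.7% of ST2- cells.

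The count of 172 genes moved by over 1.5 times in several settings. It was 76 without multiplet candidates (5 pools), and 25 of the 54 named genes past the threshold still passed. It was 75 in red cells alone (8 pools) and 52 in green cells alone (3 pools). With pools regrouped by hashtag number it was 135, of which 103 were among the 172, and with both replicates of a condition summed it was 111, of which 95 were. Leaving out a pool gave 80 to 176, the lowest without NT day 3 replicate 2. In no setting run was any of the 172 genes called in the other direction.

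The share of ST2+ cells among Treg did not differ past the spread of the pools between irradiated and unirradiated tumours. At day 1 it was 26.9% and 24.8% with RT (7 of 26 and 32 of 129 Treg), against 32.0% and 29.5% with NT (16 of 50 and 31 of 105). At day 3 it was 41.7% and 37.5% with RT (5 of 12 and 6 of 16), against 25% and 32.7% with NT (9 of 36 and 33 of 101). With FTY720 at day 3 it was 28.6% and 22.2% with RT (2 of 7 and 2 of 9), against 33.3% and 30.0% without (2 of 6 and 6 of 20). RT pools lay below NT pools at day 1, above them at day 3 and below them with FTY720, and the numbers of Treg at day 3 were small in all but the NT pools. The means were 30.3% ± 7.63 for RT and 30.4% ± 3.05 for NT (SD, n = 6 pools each), a difference of −0.14 percentage points (exact permutation test within time and FTY720, two-sided p = 0.972). Of all kept T cells, ST2+ Treg were 5.32% ± 2.36 with RT and 5.48% ± 1.25 with NT (difference −0.16, exact permutation p = 0.917). The enrichment and the sort can set the share of all T cells. These p-values do not show that the shares were equal.

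By colour, ST2+ cells were a larger share of red than of green Treg under the colour names of the matrices. In 8 pools with at least 5 Treg of each colour the share was 36.1% ± 7.17 in red and 21.7% ± 12.3 in green Treg (SD), with red at 26.0% to 50% and green at 0% to 40.0%. Red was higher in 7 of 8 pools, the exception being NT day 1 replicate 1, with 31.1% of red and 40.0% of 5 green Treg. The difference of 14.4 percentage points passed with the pools taken as separate (exact sign-flip permutation p = 0.0234, adjusted over 4 share tests p = 0.0469). With both replicates of a condition summed it was 10.2 points and did not pass (6 conditions, exact permutation p = 0.25). Of all kept T cells, ST2+ Treg were 7.44% ± 2.99 of red and 2.62% ± 1.99 of green cells (n = 12 pools, higher in red in 11), a difference of 4.82 points (exact permutation p = 0.000977, adjusted p = 0.00391). Thinned to 8000 UMIs per cell it was 2.79 points (exact permutation p = 0.0269). With both replicates of a condition summed it was 4.5 points and did not pass (exact permutation p = 0.0625). With the label colours the differences were 0.281 (exact permutation p = 0.992) and 0.20 points (exact permutation p = 0.909). The pools of replicate 1, whose colours do not conflict, gave 14.7 points of Treg (4 pools, exact permutation p = 0.25, where the smallest possible is 0.125) and 5.02 points of all T cells (6 pools, exact permutation p = 0.0312, the smallest possible). Those of replicate 2 gave 14.1 (exact permutation p = 0.125) and 4.62 points (exact permutation p = 0.0625). The shares of both replicates thus went the same way under the matrix colours. By contrast, the clones shared by replicates mostly kept their colour under the label colours. Which colour names are right was not tested.

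**Figure D4:**
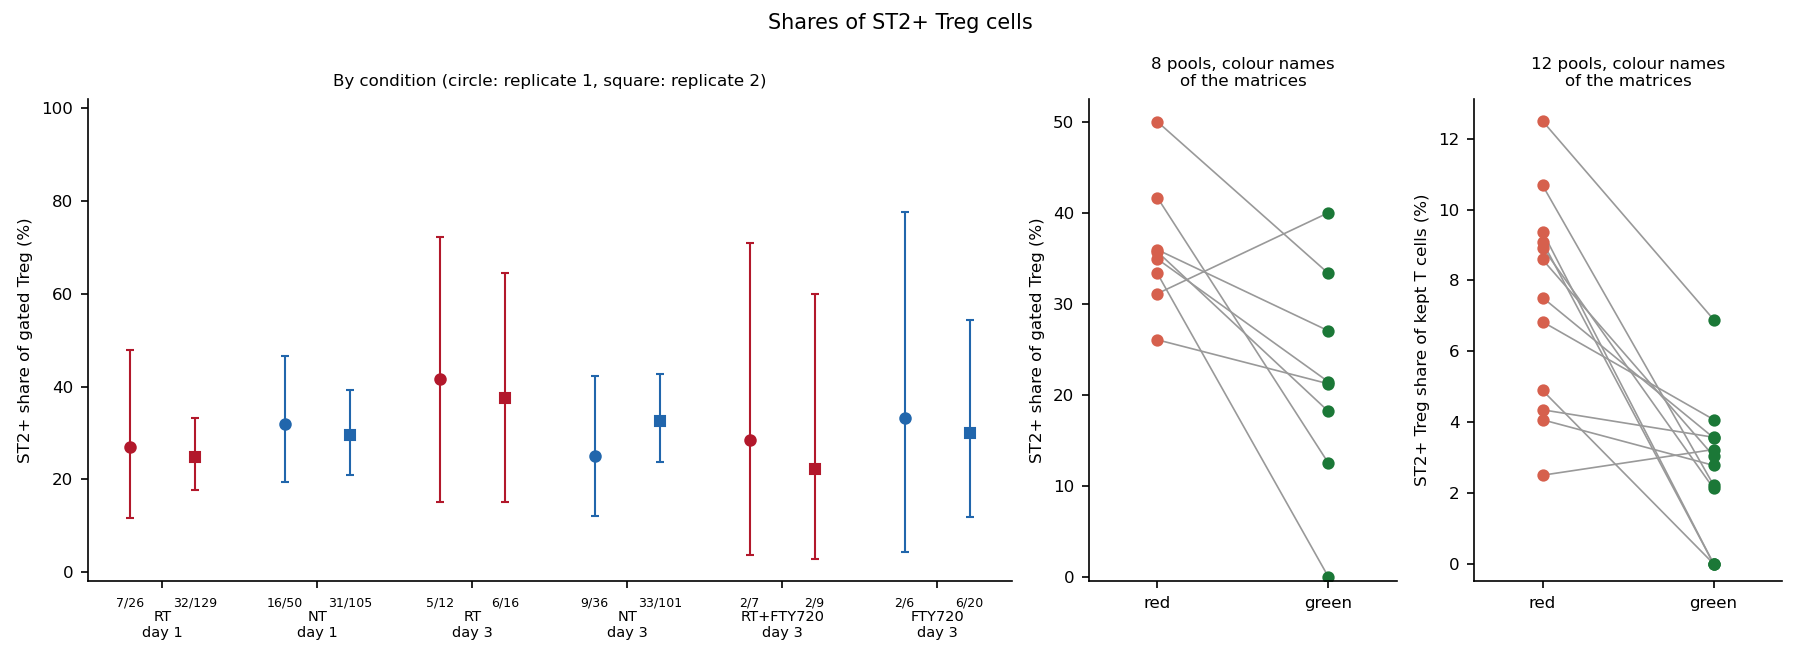
Left, the ST2+ share of gated Treg (%) in each of 12 pools by condition, with exact 95% binomial intervals that cover counting error only and the counts of cells below. Middle and right, the ST2+ share of gated Treg (8 pools) and the ST2+ Treg share of all kept T cells (12 pools) in red and green cells, with a line joining the colours of a pool. Red stands higher in 7 of 8 and in 11 of 12 pools.

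Within ST2+ Treg, radiation was compared over 4 RT sums against 5 NT sums of at least 5 cells, with the time and FTY720 as a term. With 2 ST2+ cells in each pool, RT with FTY720 gave no sum. The 1 sum of FTY720 alone (6 cells) was alone under its own term, so it took no part in the comparison or its spread. The fit had 5 residual degrees of freedom with and without it. By edgeR, 0 of 6052 genes passed (0%), with 466 at an unadjusted p below 0.05 and 12 called by DESeq2. With the replicate number as a replicate block 2 passed, both TCR segments. The interferon-stimulated genes lay together above 0: all 18 had a positive log2 fold change and the list median was 1.27, against −0.01 for all genes, while 17 of the 18 had an unadjusted p below 0.05 and 0 passed. Of the 12 genes DESeq2 called, all higher, 4 were of this list: Bst2 (1.41 ± 0.38, DESeq2 adjusted p = 0.0342), Ifi47, Irf7 and Zbp1.

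Irf7, the interferon regulatory factor that amplifies type I interferon, stood at 171 and 210 CPM with RT at day 1, against 79.4 and 215 CPM with NT at day 1. At day 3 it stood at 992 and 1002 CPM with RT, against 196 and 211 CPM with NT, and at 135 CPM with FTY720 alone. The day 3 RT pools were the highest, and at day 1 the groups overlapped (all strata 1.31 ± 0.37, adjusted p = 0.405). Isg15, an interferon-induced ubiquitin-like modifier, stood at 1613 and 2004 CPM with RT at day 3, against 156 and 424 CPM with NT at day 3. Bst2, the antiviral protein tetherin, stood at 1395 and 2345 CPM with RT at day 3, against 271 and 548 CPM with NT at day 3. These RT sums held 5 and 6 cells, and RT and NT at day 3 lay in different wells, so that well and radiation cannot be told apart there. At day 1, where RT and NT shared a well, 17 of 18 interferon-stimulated genes lay above 0 with a median of 0.59, and 0 passed. That median was 0.16 without NT day 1 replicate 1 and 1.31 without NT day 1 replicate 2. Without NT day 1 replicate 2 the comparison over all strata had a list median of 1.74 and 10 of the 18 passed (lowest adjusted p = 0.00275). The call also moved with that pool kept: with no low count filter 12 of the 18 passed. Without multiplet candidates, where the fit was the same as that at day 1, the list median was 0.69 and 16 of 18 lay above 0. With pools regrouped by hashtag number the median was 1.18 and 0 passed.

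At day 1 alone, 0 of 6052 genes passed by edgeR (0%), with 122 at an unadjusted p below 0.05 and 0 called by DESeq2. With the replicate block 1 gene passed, a TCR segment. Areg stood at 305 and 244 CPM with RT, against 245 and 267 CPM with NT, and the groups overlapped (0.08 ± 0.34, adjusted p = 1). Ctla4 stood at 2591 and 3222 CPM with RT, against 2463 and 2550 CPM with NT, and did not pass (0.22 ± 0.23, adjusted p = 1). With the pools of this size, 40 of 92 genes changed by a log2 of 1 and 94 of 98 changed by 2 were recovered in counts simulated for the comparison over all strata.

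Unirradiated tumours of day 3 and day 1 shared a well, and 4 of 6052 genes passed in their ST2+ Treg (0.0661%), 3 higher and 1 lower at day 3. Ctsw, the lysosomal protease cathepsin W of cytotoxic lymphocytes, stood at 352 and 174 CPM at day 3, against 34.0 and 33.6 CPM at day 1 (2.86 ± 0.39, adjusted p = 0.0206). Cd81, a tetraspanin, stood at 298 and 263 CPM at day 3, against 77.2 and 26.6 CPM at day 1 (2.49 ± 0.39, adjusted p = 0.0241). Ctss, the antigen-processing protease cathepsin S, stood at 907 and 595 CPM at day 3, against 234 and 215 CPM at day 1 (1.72 ± 0.27, adjusted p = 0.0241). None of the 3 overlapped between the days, but with 2 sums a side this also held for genes that did not pass, among them Ikzf2, Batf, Ctla4 and Il10. Actg1, cytoplasmic γ-actin, was lower, at 3098 and 4189 CPM at day 3 against 11152 and 9197 CPM at day 1 (−1.48 ± 0.23, adjusted p = 0.0241). The means of the RT pools took no part in this contrast, although their spread entered its fit. In them Actg1 stood at 3575 and 5609 CPM at day 3 and at 10704 and 9390 CPM at day 1, while Ctsw stood at 32.7 and 62.0 CPM at day 3 and at 31.0 and 45.2 CPM at day 1. Ctla4 stood at 1197 and 1326 CPM at day 3, against 2463 and 2550 CPM at day 1, and did not pass (−0.99 ± 0.24, adjusted p = 0.149). Without NT day 1 replicate 2 or without NT day 3 replicate 1, 0 genes passed, and without NT day 1 replicate 1 or NT day 3 replicate 2, 2 passed. With the replicate block 10 genes passed, among them these 4, the chemokines Ccl3 and Ccl4, and Izumo1r, a folate receptor family member of Treg. With pools regrouped by hashtag number 14 passed.

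**Figure D5:**
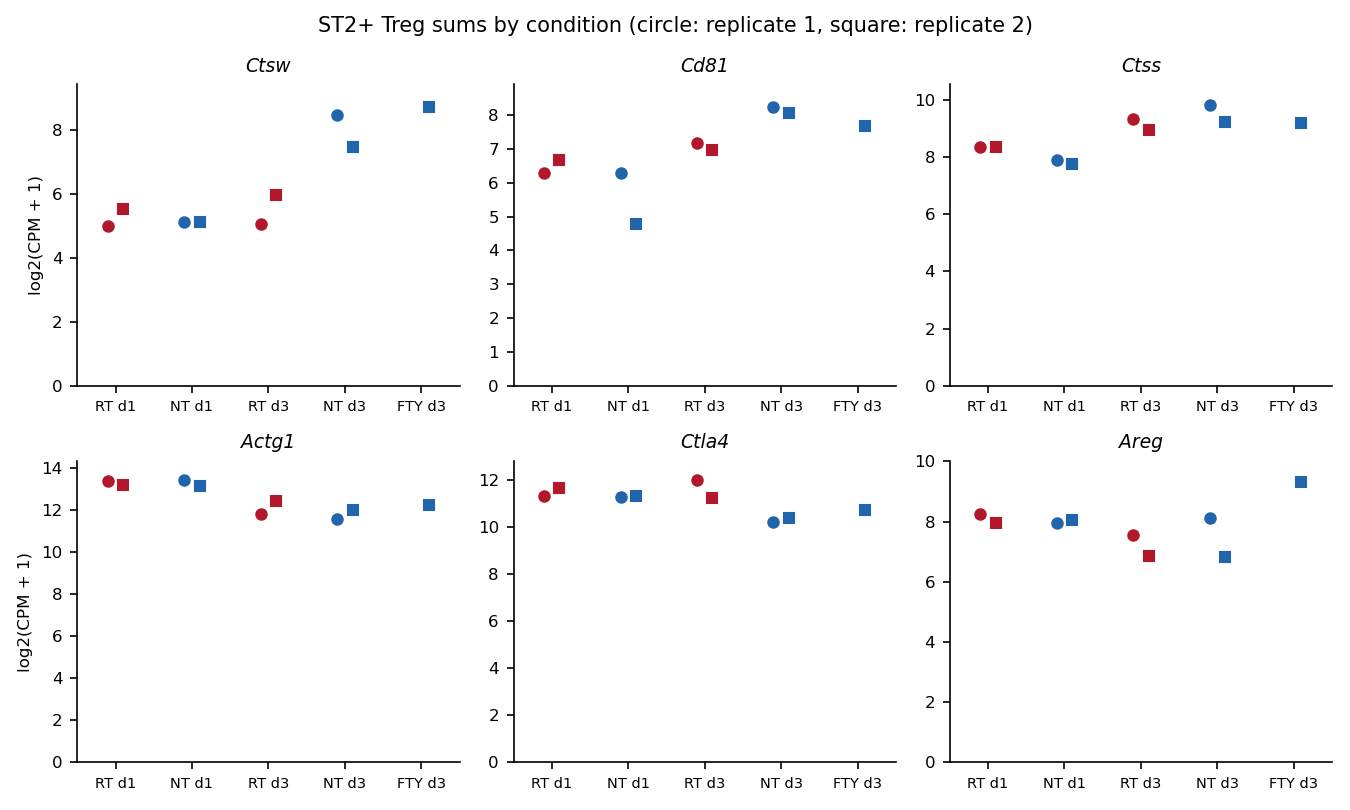
Level of 6 genes in ST2+ Treg, as log2(CPM + 1) from 0 (vertical axis), in each pool with at least 5 ST2+ cells, by condition (RT in red, no RT in blue; circles are replicate 1 and squares replicate 2; d1 and d3 are days 1 and 3, and FTY is FTY720 alone). The 2 NT pools of day 3 stand above the 2 of day 1 for Ctsw, Cd81 and Ctss and below them for Actg1.

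Red and green ST2+ Treg could be compared in 3 pools, all of replicate 2. Of 5717 genes 1 passed by edgeR (0.0175%), and DESeq2 also called 1. Gzmb, the cytotoxic protease granzyme B, ran over 1350, 2571 and 3386 CPM in red cells, against 490, 1027 and 1565 CPM in green cells (lowest, median and highest pool), higher in red in 3 of 3 pools (1.29 ± 0.15, adjusted p = 0.0333). Since these pools are those with conflicting colour names, the label colours turn the same value to −1.29. The call was lost without NT day 1 replicate 2 (adjusted p = 0.376), without NT day 3 replicate 2 (adjusted p = 0.265) and without multiplet candidates (adjusted p = 0.133), and without RT day 1 replicate 2, 45 genes passed. Areg, at 157, 247 and 381 CPM in red cells, against 14.1, 32.6 and 249 CPM in green cells, did not pass (1.74 ± 0.62, adjusted p = 0.866). With pools regrouped by hashtag number, 0 genes passed.

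Effects in ST2+ and ST2- Treg were set against each other by an interaction term. The radiation effect differed in 5 of 9058 genes (0.0552%), of which 4 were TCR V segments and 1 was Egr3, an early growth response factor. The difference between red and green differed in 1 of 7933 genes (0.0126%), a TCR V segment. With pools regrouped by hashtag number 0 and 3 genes passed.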

How the data were processed

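Gene, hashtag and TCR libraries of 4 wells (10x 5′ chemistry) were analysed from the filtered matrices of UMI counts and the TCR contig tables as deposited by the authors, made with Cell Ranger 8.0.1 on build mm39, per the submitters' processing notes. No cells were clustered and no doublet caller was run. Each cell took its leading hashtag where this had 20 UMIs or more and exceeded the next by 3 times or more. Hashed samples held 17 to 322 kept cells and 337319 to 7891316 UMIs, and the ST2+ sums used held 97478 to 772187 UMIs. Some marker values are not reported here. The members, lists and tests were chosen with earlier results of these data known.

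Raw counts were summed per pool and class (at least 5 cells) and fitted with edgeR 4.0.16 (filterByExpr, TMM, quasi-likelihood, Benjamini-Hochberg threshold 0.05) in R 4.3.3, with the pool as a term for ST2+ against ST2- and for red against green. Adjusted p-values of genes in the text are from this fit over all genes tested unless DESeq2 1.42.0 is named. The contrasts at day 1 and between the NT days came from a fit of condition means over all ST2+ sums. RT and NT pools outside a contrast thus also set its spread. Shares were compared by exact permutation with scipy 1.17.1. Named genes were the 12 largest changes per direction past the threshold with 75% of pools in that direction and at least 20 CPM in the higher class, members of the lists past the threshold, and 10 genes always named. In simulated counts 85 of 100 genes changed by a log2 of 1 were recovered for ST2+ against ST2-, and 21 of 97 for red against green.

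Replicate numbers did not pair the pools: the correlation of deviations of same-numbered pools was −0.01 to 0.07 over 6052 genes and 6 pairs of conditions. Intervals are exact, at 95%, and cover counting error only.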

Additional observations from a re-analysis of the deposited data

Results flagged for a closer look

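In 71 groups of pools tested for a pool far from the others 13 were flagged. Chance flags about 5% of groups of normally distributed values, a rate that does not hold for shares and sums at 0. Of the 13 flagged, 9 lay in the day 3 RT pools, whose ST2+ sums held 5 and 6 cells. In RT day 3 replicate 1 the log2 difference of ST2+ minus ST2- Treg, on log2(CPM + 1), stood apart for Trat1, a TCR-associated adaptor (8.14, 280 CPM in ST2+ against 0 CPM in ST2- Treg), Ptpn13, a tyrosine phosphatase (6.34, 80.1 against 0 CPM), Klf2 (3.77, 1141 against 82.8 CPM), Ccr4 (5.36, 40.0 against 0 CPM), Itgb8 (−7.55, 0 against 186 CPM), Ccr8 (−9.08, 0 against 538 CPM) and Ctla4 (1.24, 3743 against 1584 CPM). In RT day 3 replicate 2 it stood apart for Emb (4.62, 336 CPM in ST2+ against 12.7 CPM in ST2- Treg) and Il18r1 (3.98, 148 against 8.46 CPM). In NT day 3 replicate 1 Cd69 was lower in ST2+ Treg (−0.97, 129 CPM in ST2+ against 254 CPM in ST2- Treg), whereas it was higher in the other 8 pools.

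The share of cell pairs with the same TCR beta chain stood apart at 0.215% among ST2+ Treg of NT day 1 replicate 2. It also did at 1.67% among ST2- Treg of NT day 3 replicate 1, and at 0.57% between ST2+ and ST2- Treg of NT day 1 replicate 1. The ST2+ share was above 0 in 1 of 8 pools, so its flag was set in advance and tests nothing.

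The effect of radiation differed between ST2+ and ST2- Treg in the edgeR interaction term for Trav1 (10.07 ± 1.64 SE, adjusted p = 0.0488), Trav3-3 (5.63 ± 0.70, adjusted p = 0.00216), Trbv31 (−7.01 ± 0.93, adjusted p = 0.00455), Trbv13-3 (−8.04 ± 1.14, adjusted p = 0.00455) and Egr3 (−5.53 ± 0.95, adjusted p = 0.0488). Trav1 stood at 253.5 CPM in ST2+ Treg of RT day 1 replicate 1, 253.8 CPM in RT day 3 replicate 1 and 328 CPM in FTY720 day 3 replicate 2, and at 0 in the other ST2+ sums. Egr3 stood at 0, 6.89, 0 and 0 CPM in the ST2+ sums with RT. With NT its ST2+ sums stood at 131 and 20.4 CPM at day 1 and at 0 and 0 CPM at day 3. In ST2- Treg it stood at 65.7, 56.6, 0 and 0 CPM with RT, against 14.3, 11.8, 1.86 and 31.7 CPM with NT. The difference between red and green cells differed for Trav8d-2 (−16.04 ± 1.57, adjusted p = 0.0302), which stood at 375 CPM in green ST2+ Treg of NT day 1 replicate 2 and at 0 in the other ST2+ sums.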

How the results depend on the processing

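ST2+ against ST2- Treg (172 genes) gave 455 with no low count filter, 76 without multiplet candidates, 52 in green and 75 in red cells. It gave 30 without the pool as a term, 63 thinned, 87 without cycling cells and 111 with replicates summed (leaving out a pool, 80 to 176). RT against NT (0) gave 12 by DESeq2, 104 with no filter, 34 with at least 10 cells per sum (1 residual degree of freedom), 1 without multiplets, 1 in red cells and 2 with the replicate block (0 to 29). At day 1 (0) these gave 28 with no filter, 34, 1, 1 and, with the replicate block, 1 (0 to 1). With at least 10 cells, and without multiplets, the fit at day 1 was the same as that of RT against NT. The repeated 34 and 1 are therefore not separate results. With at least 10 cells RT was the single sum of RT day 1 replicate 2, and NT day 3 was also a single sum. Those counts thus hold no spread between RT pools or between NT day 3 pools. NT day 3 against day 1 (4) gave 25 by DESeq2, 120 with no filter, 147 with at least 10 cells, 13 with Il1rl1 of at least 2 UMIs, 7 without multiplets, 23 in red cells, 10 with the replicate block and 14 by hashtag number (0 to 6). Red against green (1) gave 65 with no filter and 0 without multiplets, without the pool as a term and by hashtag number (0 to 45). The interaction with radiation (5) gave 2 by DESeq2, 39 with no filter, 2 without multiplets and 0 by hashtag number (3 to 7). That with colour (1) gave 6, 110, 0, 3 by hashtag number and 0 without the pool as a term (0 to 7). The cause of these changes was not tested.

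The RT minus NT share of Treg turned to 2.28 points thinned, 2.19 with 2 Il1rl1 UMIs, 2.92 with at least 10 cells and 0.303 by hashtag number (−1.42 to 1.14), and that of all T cells to 0.892 thinned and 0.12 with 2 UMIs (−0.794 to 0.464). With the replicate block their exact permutation p was 0.969 and 0.938. The red minus green share of Treg lost its call at 0.281 with label colours and 10.2 summed (11.7 to 17.7). It was 12.4 thinned, 11.2 with at least 10 cells, 14.7 in replicate 1 and 14.1 in replicate 2, where the smallest possible p is 0.0625 or 0.125 and no call could be kept. The share of all T cells lost its call at 0.20 with label colours, 4.5 summed and 4.62 in replicate 2 (4.41 to 5.32). Pair sharing of ST2+ minus ST2- Treg was −0.255 by hashtag number (−0.355 to −0.117), and that with ST2- minus conventional CD4 cells ranged over 0.0504 to 0.132. Reversed genes were Itgae (−0.10) and Il7r (−0.65) in green cells and Gzmb (−1.29) with label colours. Of the other gene values 1893 kept their side of the threshold, among which uncalled genes may change sign, 23 gained and 339 lost the call. Green cells alone could not be fitted for the radiation and day comparisons, nor 10 cells per sum for colour.

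Few cells limit these results: RT day 3 sums held 5 and 6 ST2+ cells, RT at day 3 shared no well with NT, colour names conflict in replicate 2, and replicates share T cell receptors.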
